A study of Mus musculus with 6 samples.

Results

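The genes described here are the feedback inhibitors of the ERK pathway: the phosphatases Dusp1, Dusp4, Dusp5 and Dusp6, the Sprouty genes Spry1, Spry2 and Spry4, the Spred genes Spred1 and Spred2, and the early response gene Ier3. They were chosen by name, with earlier results of these data known. Every probe set annotated to them was read, which gave 25 of 45037 probe sets for 10 of 18193 named genes. A probe set reads 1 transcript through several short probes, and its value is a log2 signal, so a difference of 1 is a 2-fold change. Signals were measured on 6 Affymetrix arrays of total RNA from immortalized mouse embryonic fibroblasts. All cells lacked PCAF (PCAF-/-). There were 3 GCN5+/- and 3 GCN5-/- arrays from 2 lines. Line A gave duplicate RNAs per genotype, arrays A1 and A2, and line B, immortalized independently, gave 1 RNA per genotype. Values of a genotype are listed below in the order A1, A2, B. The study infected PCAF knockout, GCN5 conditional knockout cells with a Cre or an empty retrovirus and selected them in puromycin. GCN5-/- was read as the Cre arm, so the loss of GCN5 and the Cre virus cannot be told apart. Each line is 1 immortalization, so a line difference is between 2 cultures, and p-values rest partly on duplicate RNAs of 1 line.

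Growth factors bind receptor tyrosine kinases, which switch on RAS, then the kinases RAF, MEK and ERK. Active ERK turns on transcription, and among its targets are its own inhibitors. DUSP enzymes remove phosphate from ERK and related kinases, DUSP5 in the nucleus and DUSP6 in the cytoplasm, while Sprouty and Spred proteins act further upstream, between the receptor and RAF. Fibroblasts use this circuit when serum or growth factors drive them to divide. GCN5 and PCAF are related histone acetyltransferases, which act on chromatin at genes.

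The windows below are the 250 bases before the RefSeq start site (build GRCm38.p6) of the 4 members that passed the genotype test. They are shown because these genes changed, and because 2 of them hold a match to a serum or cAMP response motif. Each is upstream of the first exon, 5′ to 3′ on the gene's strand. Capitals mark the matches to the CArG box in Dusp5 and to the CRE in Dusp1.
Dusp5, chr19:53528895-53529144, plus strand: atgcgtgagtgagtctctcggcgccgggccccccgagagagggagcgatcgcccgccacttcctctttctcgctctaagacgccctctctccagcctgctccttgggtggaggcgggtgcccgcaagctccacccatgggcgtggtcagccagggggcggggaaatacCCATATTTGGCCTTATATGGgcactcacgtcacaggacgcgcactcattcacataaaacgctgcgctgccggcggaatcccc
Dusp1, chr17:26508473-26508722, minus strand: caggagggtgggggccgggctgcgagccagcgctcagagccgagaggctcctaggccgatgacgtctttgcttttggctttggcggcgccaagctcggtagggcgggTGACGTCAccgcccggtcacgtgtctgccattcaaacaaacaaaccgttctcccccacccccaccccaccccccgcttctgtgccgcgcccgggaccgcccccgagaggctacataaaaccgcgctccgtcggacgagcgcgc
Ier3, chr17:35821463-35821712, plus strand: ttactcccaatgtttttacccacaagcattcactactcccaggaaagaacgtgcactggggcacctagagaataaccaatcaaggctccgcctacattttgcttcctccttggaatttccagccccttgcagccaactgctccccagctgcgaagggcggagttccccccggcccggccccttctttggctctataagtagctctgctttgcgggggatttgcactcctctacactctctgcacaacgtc
Spry1, chr3:37639697-37639946, plus strand: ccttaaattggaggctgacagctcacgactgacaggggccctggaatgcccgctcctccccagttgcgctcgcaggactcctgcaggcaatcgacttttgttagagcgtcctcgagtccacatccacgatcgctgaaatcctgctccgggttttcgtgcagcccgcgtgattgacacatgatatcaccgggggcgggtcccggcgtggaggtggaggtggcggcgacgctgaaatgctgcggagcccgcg

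The RefSeq table held a window for 8 of the 10 members. Both strands of 300 bases, 250 before and 50 after the start, were searched for the ETS motif CCGGAAGT, the AP-1 motifs TGACTCA and TGAGTCA, the CRE TGACGTCA, the GC box GGGCGGG and the CArG box, the motif of serum response factor. In Dusp5, 2 CArG boxes lay end to end, starting 82 and 72 bases before the start site. Of all 32851 windows in the table, 1.63% held a CArG box. The CRE in Dusp1 started 143 bases before the start site, against 1.79% of all windows with 1. GC boxes were found in Dusp1, Dusp5 and Spry1 and in 25.6% of all windows. The ETS motif (3.89% of all windows) and the AP-1 motifs (5.20%) were found in none of the 8 windows. A match describes these letters and does not show that a factor binds there.

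In GCN5-/- arrays Ier3, Dusp5 and Dusp1 were higher and Spry1 was lower, by 1.33-fold to 1.74-fold, while the other 6 genes did not pass the test. Of the 25 probe sets, 21 passed the level filter (mean log2 signal at or above the 40th percentile, 6.80) and were tested with limma, and an adjusted p under 0.05 is called below. Of these 21, 3 were called higher and 1 lower. That is 19.0% of them, against 8.51% of all 27022 tested probe sets (4.2% higher and 4.31% lower). GCN5-/- and GCN5+/- arrays did not overlap at 4 of the 21 (19.0%), the same 4 genes, near the 17.0% of all tested probe sets. The median size of the genotype difference, without sign, was 0.12 for the 21 probe sets and 0.12 for all tested. Counted once per gene at the brightest probe set, 4 of 10 genes (40%) were called, with a median size of 0.29. No share counted in that way was computed for all genes. All 4 calls needed the line term: without it their adjusted p-values were 0.219 to 0.368, and with line as a random block Dusp1 (0.0862) and Spry1 (0.0816) were not called.

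**Figure D1:**
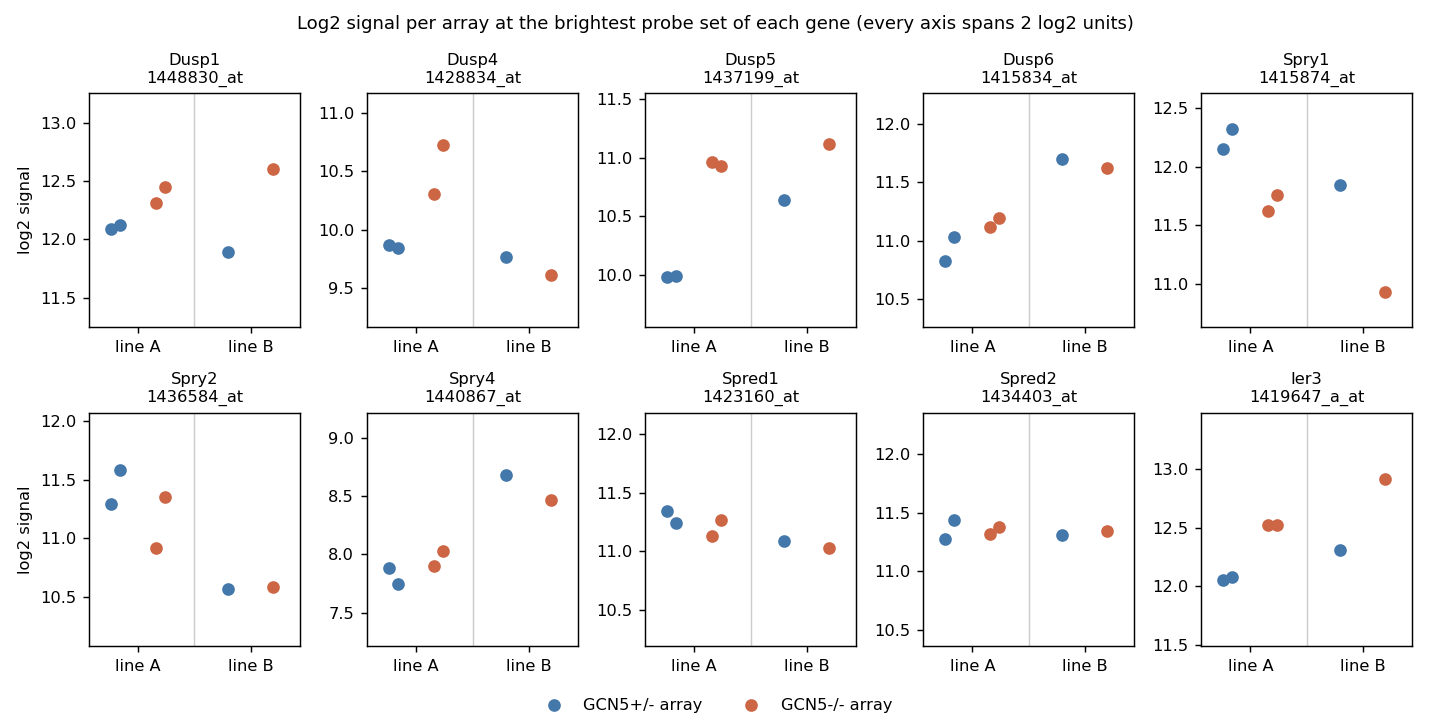
Log2 signal on each of the 6 arrays (vertical axis, 2 log2 units in every panel) at the brightest probe set of each of the 10 genes, with line A on the left and line B on the right of each panel; each point is 1 array, blue for GCN5+/- and orange for GCN5-/-. Ier3, Dusp5 and Dusp1 are higher and Spry1 lower in the GCN5-/- arrays of both lines, Dusp6 and Spry4 stand higher in line B, and Spry2 lower.

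Ier3, an early response gene whose protein is a substrate of ERK, had the smallest p of the members. Its log2 signal (1419647_a_at) was 12.05, 12.07 and 12.31 with GCN5+/- and 12.53, 12.53 and 12.92 with GCN5-/-. Every GCN5-/- array was above every GCN5+/- array. The log2 difference was 0.51 ± 0.06 (SE, 3 arrays per genotype; limma adjusted p = 0.00239). The 3 matched pairs gave 0.48, 0.45 and 0.61. The tested probe sets with the pattern over the 6 arrays most like that of Ier3 were of Dna2, Adk and Qtrt2 (Pearson r = 0.997, 0.994 and 0.994), a description over arrays that share their lines and genotypes.

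Dusp5, the nuclear phosphatase that acts on ERK alone among the kinases of its family, showed the largest difference. Its log2 signal (1437199_at) was 9.98, 9.99 and 10.64 with GCN5+/- and 10.97, 10.93 and 11.12 with GCN5-/-. The GCN5-/- arrays lay close together, and the GCN5+/- array of line B stood between them and the GCN5+/- arrays of line A. The log2 difference was 0.80 ± 0.11 (SE; limma adjusted p = 0.00576); both line A pairs were above that (0.98 and 0.94) and the line B pair below (0.48). With the line A duplicates averaged it was 0.72 and not called (adjusted p = 0.0587, within 0.00131 to 0.219 over 16 alternatives).

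Dusp1, which removes phosphate from p38, JNK and ERK, is a classic immediate early gene. Its log2 signal (1448830_at) was 12.09, 12.12 and 11.90 with GCN5+/- and 12.31, 12.45 and 12.60 with GCN5-/-. The groups did not overlap, and the line B pair differed more (0.71) than the line A pairs (0.22 and 0.32). The log2 difference was 0.42 ± 0.10 (SE; limma adjusted p = 0.0359). This call rested on all arrays but 1: it was lost without GCN5+/- A1 (adjusted p = 0.103), GCN5+/- A2 (0.0648), GCN5+/- B (0.0604), GCN5-/- A2 (0.126) or GCN5-/- B (0.0651), and kept without GCN5-/- A1 (0.0385). Leaving out either B array left the line A pairs alone to set the difference, which was then 0.27.

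Dusp4 and Dusp6 did not pass the genotype test. Dusp4, a nuclear phosphatase of ERK and JNK, had log2 signals (1428834_at) of 9.87, 9.85 and 9.76 with GCN5+/- and 10.31, 10.72 and 9.61 with GCN5-/-. Both GCN5-/- arrays of line A were above all other arrays, and the GCN5-/- array of line B was the lowest of the 6. The log2 difference over both lines was 0.39 ± 0.18 (SE; 95% interval -0.02 to 0.80; limma adjusted p = 0.230). Within line A it was 0.66 ± 0.15 (limma adjusted p = 0.0368, a fit that called 8.59% of all tested probe sets). Leaving out either B array gives the same 0.66 by construction, since the line term then takes up the other B array. Over its 4 alternatives the line A value had adjusted p-values of 0.0315 to 0.0881.

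Dusp6, the cytoplasmic phosphatase that acts on ERK and is often read as a gauge of ERK activity, had log2 signals (1415834_at) of 10.82, 11.03 and 11.70 with GCN5+/-. With GCN5-/- they were 11.12, 11.20 and 11.62. The genotypes overlapped, and the log2 difference was 0.13 ± 0.10 (SE; 95% interval -0.09 to 0.35; limma adjusted p = 0.476). All 4 phosphatases had a higher signal without GCN5 in both line A pairs, which are duplicate RNAs, against 2 of 4 in the line B pair. Of all 10 members at the brightest probe set, 7, 7 and 5 were higher in pairs A1, A2 and B. Such signs were not counted over all probe sets.

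Spry1 was the member that fell. Sprouty proteins are induced by growth factors and hold back RAS and RAF activation. The log2 signal of Spry1 (1415874_at) was 12.15, 12.32 and 11.84 with GCN5+/- and 11.62, 11.76 and 10.93 with GCN5-/-. Every GCN5-/- array was below every GCN5+/- array. The log2 difference was -0.67 ± 0.10 (SE; limma adjusted p = 0.0070). The pairs gave -0.53, -0.56 and -0.91.

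The other Sprouty genes did not pass. Spry2 at its brighter probe set (1436584_at) had log2 signals of 11.29, 11.58 and 10.56 with GCN5+/- and 10.91, 11.35 and 10.59 with GCN5-/-. The difference was -0.20 ± 0.14 (SE; 95% interval -0.52 to 0.12), and at the dimmer probe set, 1421656_at, it was -0.12 ± 0.09. Spry4 had 1 of 4 probe sets past the level filter, 1440867_at, with log2 signals of 7.89, 7.75 and 8.68 with GCN5+/- and 7.90, 8.03 and 8.46 with GCN5-/-. Its genotype difference was 0.03 ± 0.11 (95% interval -0.23 to 0.29), and the 3 dimmer probe sets differed by -0.09 to 0.05 in a fit with no level filter.

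No Spred1 or Spred2 probe set passed the genotype test. Their proteins bind neurofibromin, which switches RAS off. Spred1 had 8 probe sets, of which 7 were tested with log2 differences between -0.08 and 0.14, and Spred2 had 5, all tested, between -0.15 and 0.06; none of the 12 was called. At the brightest Spred1 probe set (1423160_at) log2 signals were 11.34, 11.24 and 11.09 with GCN5+/- and 11.13, 11.26 and 11.03 with GCN5-/-. At the brightest Spred2 probe set (1434403_at) they were 11.27, 11.44 and 11.31, and 11.32, 11.38 and 11.34. The 95% intervals of the genotype difference were -0.26 to 0.10 for the Spred1 and -0.17 to 0.18 for the Spred2 probe set. The 1 untested Spred1 probe set, 1445228_at, had a mean log2 signal of 4.80.

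**Figure D2:**
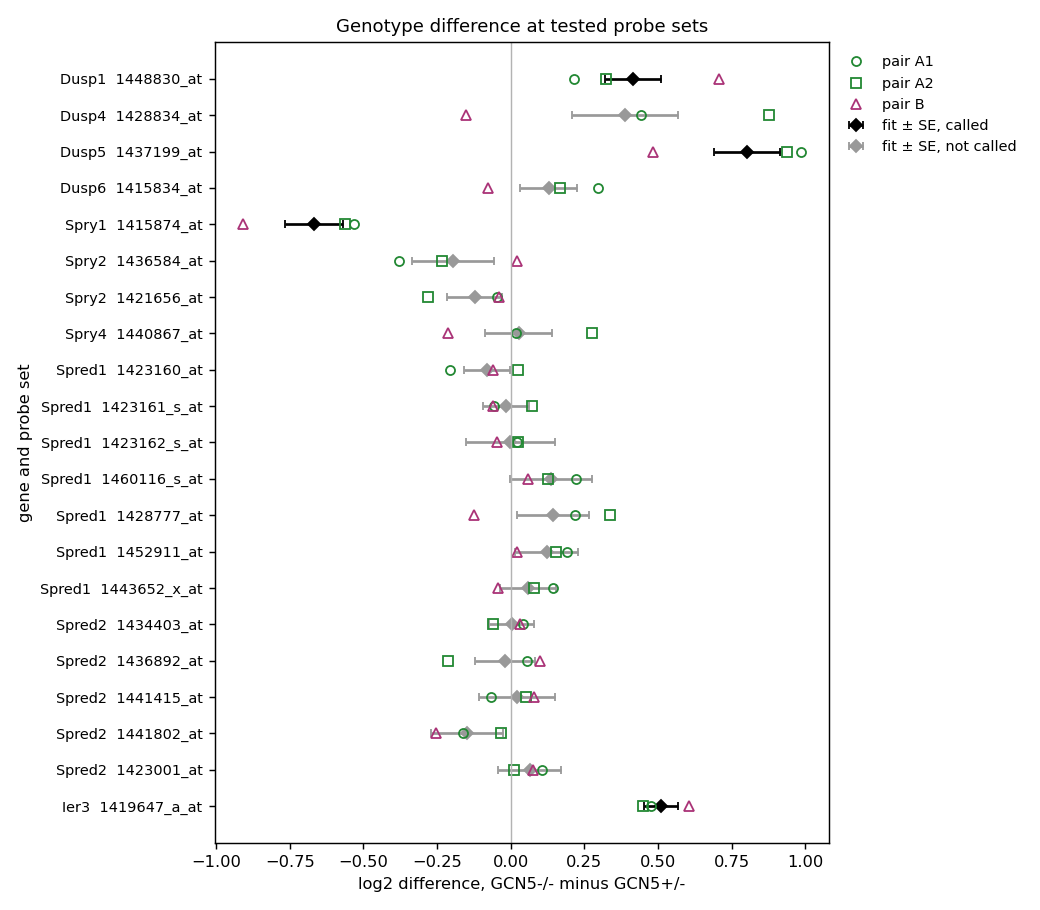
Log2 difference, GCN5-/- minus GCN5+/-, at the 21 tested probe sets, 1 per row; open symbols are the 3 matched pairs and diamonds the limma fit ± SE, black where called. The 4 called rows are Dusp1, Dusp5, Spry1 and Ier3, and the pair B triangle of Dusp4 lies at -0.15, opposite to pairs A1 and A2.

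Whether the genotype difference differed between the lines was tested with a genotype by line term. None of the 21 probe sets was called by limma (0 of 21, against 0.0481% of all tested, 13 probe sets). Against 7.66% of all tested, 3 of the 21 had an unadjusted p under 0.05. These were Dusp1 (line B minus line A, 0.44 ± 0.12, SE; limma adjusted p = 0.383), Dusp4 (-0.81 ± 0.26; limma adjusted p = 0.453) and Dusp5 (-0.48 ± 0.16; limma adjusted p = 0.505). Within a probe set the spread for this test comes from the line A duplicates alone, with 1 array per genotype in line B. The limma fit then moderates that spread with the spreads of all tested probe sets.

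Between the lines, Dusp6, Spry4, Dusp5 and Ier3 were higher in line B and Spry1 and Spry2 were lower, by 1.25-fold to 1.64-fold. These 6 of 21 tested probe sets (28.6%) compare with 23.1% of all tested probe sets (11.6% higher and 11.5% lower in line B). The lines did not overlap at 7 of the 21 (33.3%), against 36.7% of all tested. Both shares over probe sets are near the background, and 12 of the 21 probe sets are of Spred1 and Spred2. Counted once per gene at the brightest probe set, 6 of 10 genes (60%) were called, with a median size of the line difference of 0.46. Over all tested probe sets the median size was 0.16. That is not a like comparison, since no value at the brightest probe set per gene was computed for all genes.

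Dusp6 was 0.62 ± 0.10 (SE; 4 line A and 2 line B arrays) higher in line B on the log2 scale (limma adjusted p = 0.00388), by 0.77 in GCN5+/- and 0.46 in GCN5-/- arrays. The lowest line B array was above the highest line A array. Spry4 was higher in line B at all 4 probe sets. At 1440867_at the log2 difference was 0.68 ± 0.12 (limma adjusted p = 0.00526), and at the 3 dimmer ones 0.49, 0.61 and 1.38, all called in a fit with no level filter that called 14.1% of 45037 probe sets. Without GCN5+/- B the line differences at Dusp6 and Spry4 were 0.46 and 0.50 and not called (adjusted p = 0.0534 and 0.0969).

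Spry2 was lower in line B by 0.71 ± 0.15 at 1436584_at (log2, SE; limma adjusted p = 0.0108), again not called without GCN5+/- B (-0.55, adjusted p = 0.127). At 1421656_at the line difference was -0.09 ± 0.10, so its probe sets disagree in size. Spry1 was lower in line B by 0.58 ± 0.10 (limma adjusted p = 0.00543), and it passed without each array in turn. Ier3 was higher by 0.32 ± 0.06 (limma adjusted p = 0.00749), which was not called without GCN5-/- B (0.25, adjusted p = 0.0624).

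Dusp5 was higher in line B by 0.41 ± 0.12 (log2, SE; limma adjusted p = 0.0375), by 0.65 in GCN5+/- and 0.17 in GCN5-/- arrays. The call was lost without GCN5+/- A1 (adjusted p = 0.0960), GCN5+/- A2 (0.0843), GCN5+/- B (0.17 on the log2 scale, adjusted p = 0.438) or GCN5-/- A2 (0.0647). Dusp4 had a line difference of -0.50 ± 0.19 (limma adjusted p = 0.0985), which was -0.90 and called without GCN5+/- B (adjusted p = 0.0202). Dusp1 had 0.01 ± 0.10. The Spred1 probe sets had line differences of -0.22 to 0.17 and those of Spred2 -0.17 to 0.18, with none called.

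**Figure D3:**
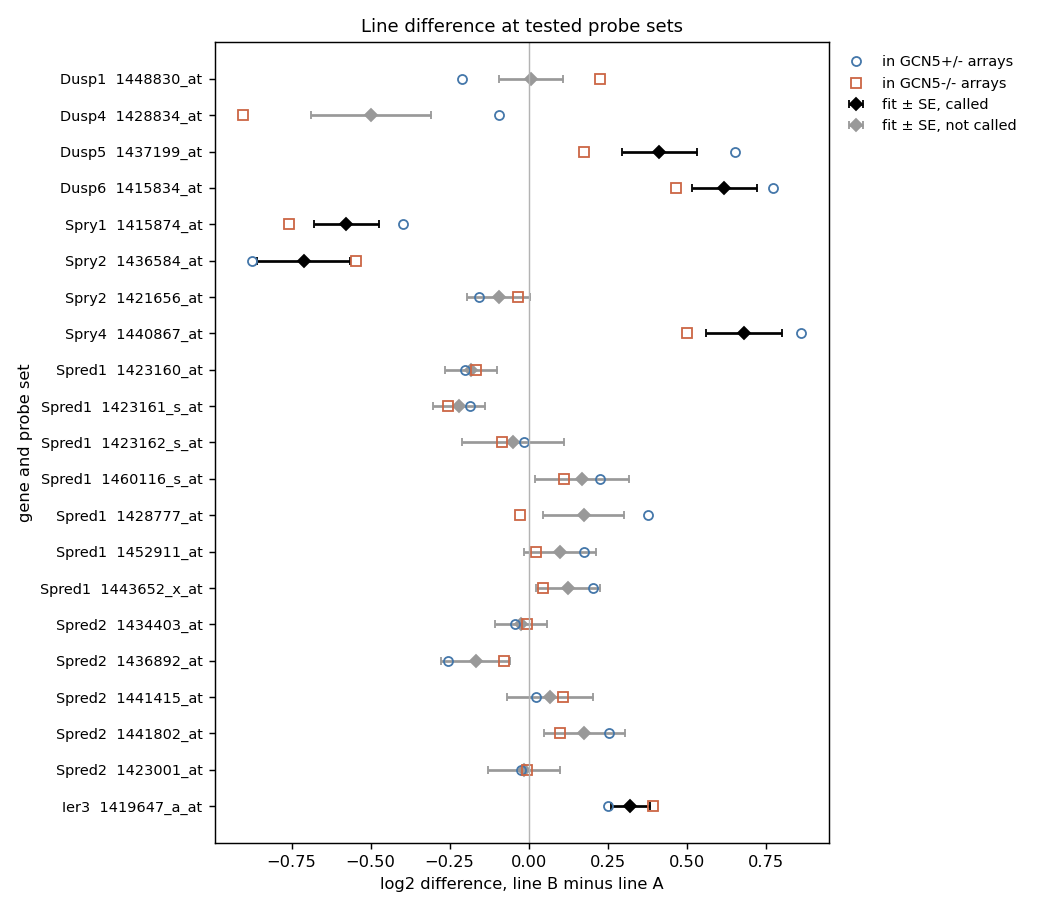
Log2 difference, line B minus line A, at the 21 tested probe sets, 1 per row; open symbols give it within each genotype (circles GCN5+/-, squares GCN5-/-) and diamonds the limma fit ± SE, black where called. Dusp5, Dusp6, Spry4 and Ier3 lie to the right of 0, and Spry1 and the brighter Spry2 probe set to the left.

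Other genes of the pathway were read from lists by role, at the brightest probe set of each gene. The lists were chosen with earlier results of these data known, so their call shares are a description. These shares stand beside that of all tested probe sets, since none was computed at the brightest probe set of every gene. Among growth factor ligands 3 rose and 1 fell of 11 tested. Ereg and Hbegf, ligands of the EGF receptor, rose by 1.77 ± 0.15 and 0.90 ± 0.12 (log2, SE; limma adjusted p = 0.000577 and 0.00501), and Btc, another such ligand, by 0.46 ± 0.09. Btc passed the level filter of 6.80 through the groups where it was higher: its mean log2 signal was 7.09 in GCN5-/- and 6.63 in GCN5+/- arrays, and 7.27 in line B and 6.66 in line A. Its calls lend no support to the list counts. Ereg went from 8.66, 8.96 and 9.03 to 10.25, 10.71 and 10.99. Hgf, the ligand of the Met receptor, fell by 0.96 ± 0.21, with pairs A1, A2 and B at -1.22, -1.46 and -0.21. Of 13 genes tested in the receptor list 4 fell and 0 rose: Egfr by 0.70 ± 0.16, Pdgfrb by 0.63 ± 0.12, Pdgfra by 0.52 ± 0.13 (limma adjusted p = 0.0487) and Erbb2 by 0.43 ± 0.09. Calls made up 36.4% of the ligands and 30.8% of the receptors, against 8.51% of all tested probe sets. The receptor median was -0.15, against -0.01 over all tested probe sets. The ligand median was -0.12 at the brightest probe sets and 0.12 at those of smallest p, so its sign turns with that choice.

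Adaptors and exchange factors had 0 of 11 called, and RAF, MEK, ERK and scaffold genes 0 of 12 by limma. The list medians were -0.06 and -0.01. An unadjusted p under 0.05 was found at 2 of 11 and 6 of 12 genes, against 24.4% of all tested probe sets. Of 10 RAS and RAS GTPase-activating genes, Rasa1, which switches RAS off, fell by 0.34 ± 0.09 (SE; limma adjusted p = 0.0498), the 1 call in that list (10.0%, against 8.51% of all tested probe sets). Among 10 relatives of the members, Dusp14 rose by 0.56 ± 0.08 (limma adjusted p = 0.00821) and Dusp3 by 0.45 ± 0.09 (limma adjusted p = 0.0212), and 8 were not called (20% called).

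Of 23 genes tested in the list of ERK output genes (26 listed), 5 rose and 0 fell in GCN5-/- arrays. That is 21.7% called against 8.51% of all tested probe sets, with a list median of 0.08. Srf, Elk1 and Elk4, which encode transcription factors of the pathway itself, are in this list and were not called for genotype or line. Fosl1, an AP-1 subunit gene, rose by 1.02 ± 0.14 (log2, SE), Lif, a cytokine gene, by 0.84 ± 0.11, Myc by 0.54 ± 0.09 and Plaur, the urokinase receptor gene, by 0.51 ± 0.11, with limma adjusted p-values up to 0.0259. Between the lines 11 of the 23 were higher and 4 lower in line B, or 65.2% called, against 23.1% of all tested probe sets. Ier2 (0.62 ± 0.07) and Fos (-1.17 ± 0.17) had the smallest p-values. The other 10 genes higher in line B, all but Lif named after their values were seen, were Etv5, Etv4, Errfi1, Epha2, Phlda1, Lif, Ccnd1, Hmga2, Ets2 and Ets1, at 0.90 down to 0.38. The other 3 lower in line B, named likewise, were Epha4 (-1.12), Zfp36 (-0.69) and Mcl1 (-0.28).

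The line differences upstream ran both ways. Of 11 ligands 4 were higher and 4 lower in line B (72.7% called, against 23.1% of all tested probe sets), with the smallest p-values at Pdgfd (1.34 ± 0.10, log2, SE) and Nrg1 (-1.51 ± 0.12). Nrg1 passed the level filter, 6.7961, through line A: its mean log2 signal was 8.30 in line A and 6.7959 in line B. Like those of Btc, its line call lends no support to the list count. Of 13 receptor genes 2 were higher and 7 lower (69.2% called), with Pdgfra at -1.91 ± 0.14 and Pdgfrb at -0.85 ± 0.13. Ksr1, a scaffold for RAF and MEK, was at -0.85 ± 0.10 and Mapk7, the kinase ERK5, at 0.64 ± 0.09. In the adaptor list Ptpn11, the phosphatase SHP2, was at -0.41 ± 0.06 and Gab2 at -0.56 ± 0.13, and in the RAS list Rasa1 was at 0.51 ± 0.09 and Rras at -0.26 ± 0.07. Among the relatives Dusp9 was at 0.58 ± 0.14 and Dusp14 at 0.47 ± 0.09.

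**Figure D4:**
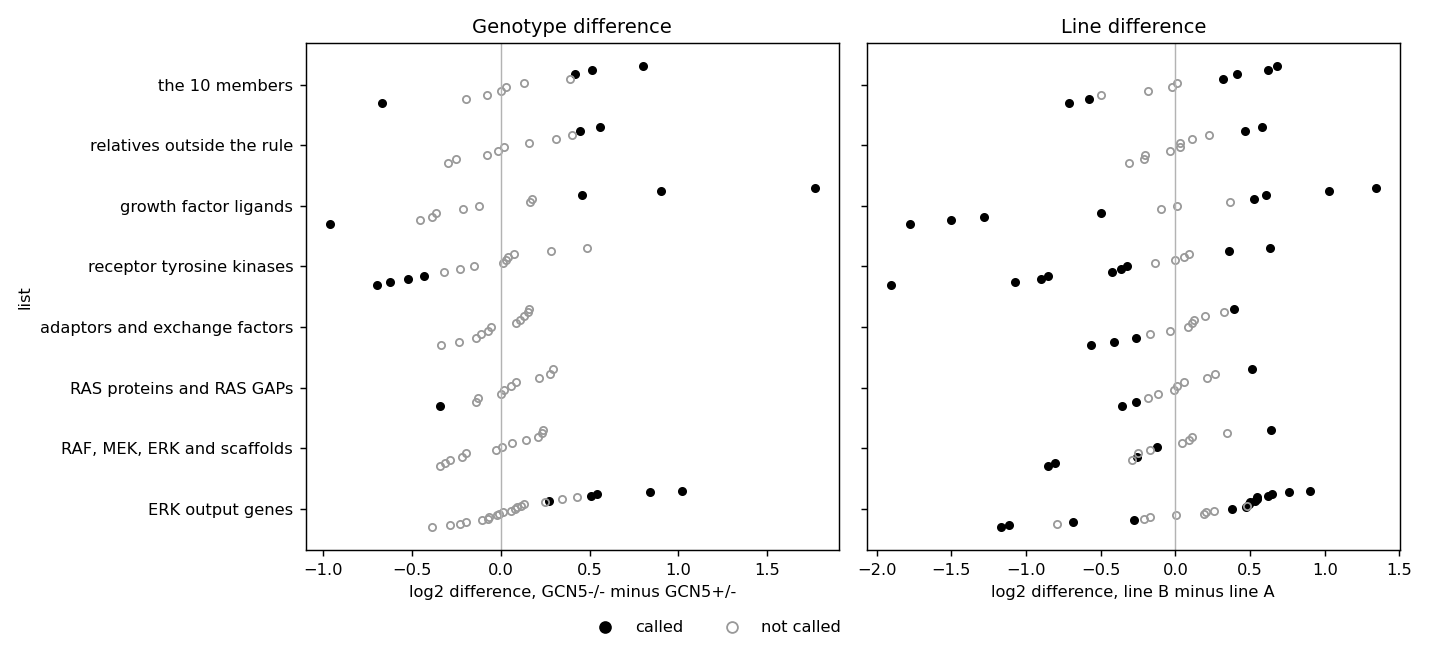
Log2 genotype difference (left, GCN5-/- minus GCN5+/-) and line difference (right, line B minus line A) of the 10 members and of 7 lists of other pathway genes, 1 point per gene at its brightest probe set, filled where called. In the genotype panel the 4 called receptor genes lie left of 0 and the 5 called ERK output genes right of it; in the line panel 15 of 23 ERK output genes are filled.

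The labels and cell identity were checked on the same arrays. Kat2a, which encodes GCN5, was lower in GCN5-/- arrays at 2 of 3 probe sets (1422972_s_at by -2.44 ± 0.37 and 1422971_at by -0.75 ± 0.13, SE) and not at 1426783_at (0.18 ± 0.16); which of them lies in the deleted part was not analysed here. All 10 fibroblast markers passed the level filter, although Thy1 did so through line B, at 9.54 and 8.60 against 6.02 to 6.21 in line A. Their mean log2 signal was 13.27 to 13.32 in GCN5+/- and 13.10 to 13.13 in GCN5-/- arrays. Of the 10, 4 were called lower in GCN5-/- (40%, against 4.31% of all tested probe sets). Pdgfra and Pdgfrb are among these 4 and were also counted above among the receptor genes, so the counts are not independent. Of 10 macrophage and leukocyte markers 6 passed, and their mean log2 signal over the list was 7.06 to 7.15 in GCN5+/- and 7.18 to 7.42 in GCN5-/- arrays. Of these, Cd53 was called higher (0.85 ± 0.09). Cd68 and Csf1r differed by 0.38 ± 0.10 and 0.36 ± 0.12 (log2, SE) and were not called. Lyz2, Cd14, Fcgr1, Itgam and Tyrobp differed by -0.05 to 0.10. Ptprc and Adgre1 were below the filter with mean signals of 4.64 and 6.18 and differences of 0.06 and -0.07. Endothelial, epithelial, skeletal muscle and neural markers had 3 of 8, 3 of 8, 2 of 7 and 4 of 8 past the filter and none called between genotypes at the brightest probe sets. At those of smallest p, 1 endothelial marker and 5 fibroblast markers were called lower. Their part in the member differences was not tested.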

How the data were processed

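The authors deposited 1 log2 signal for each probe set and array; the scale is inferred from their range, 3.13 to 15.2. MAS5 is named for 6 samples and Partek for 1 per the submitters' processing notes, and the normalization, background correction and any filters were not stated there. Array medians lay within 7.40 to 7.45. The number of arrays limits the precision. No scan dates or detection calls were used.

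Of 45101 probe sets, 64 controls were left out. Of the remaining 45037, the annotation gave 34945 1 symbol and 932 several, and 9160 are unnamed here. Those with several symbols were given no name. RefSeq GRCm38.p6 gave current symbols for 34741 and the promoter windows.

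Fits used limma 3.58.1 in R 4.3.3 (lmFit, eBayes with a trend) on 27022 probe sets at or above the 40th percentile of mean signal, with genotype and line as terms and Benjamini-Hochberg adjustment over all of them; a product term gave the interaction and the line A effect. The code was tested on simulated data. Same-named arrays were taken as matched pairs, and their deviations from group means correlated at 0.637, 0.657 and 0.804 for A1, A2 and B. Crossing A1 and A2 gave 0.348 and 0.430, so within line A the arrays were more alike by replicate. The main fit has a term for line and none for replicate, which the replicate block adds. No 2 arrays were copies (37 to 62 identical values per pair). Alternatives were other normalization, level filters, treatments of line, variance models and leaving out each array. Members and lists were chosen with earlier results of these data known. Named genes were all member probe sets, Kat2a and Kat2b, up to 4 called genes per pathway list by genotype p and up to 2 by line p, and the 3 probe sets most like the leading member; 12 ERK output genes with line calls were named outside this rule, after their values were seen. Kat2b, knocked out in all cells, was below the level filter at its 3 probe sets. A gene with several probe sets entered lists by the brightest.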

Additional observations from a re-analysis of the deposited data

How the results depend on the processing

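The 4 genotype calls (Ier3, Dusp5, Dusp1, Spry1) held with quantile normalization, with no level filter and with a filter at the 20th or 60th percentile, and in the robust fit. They held with the replicate block too, where Dusp1 had an adjusted p of 0.0483; the block changed no other member call. They depended on how line was treated. With no line term 0 members were called (69 probe sets in all, against 2299), with line as a random block 2 (Ier3 and Dusp5; 532 in all), and with line A duplicates averaged 2 (Ier3 and Spry1; 709 in all). Without a variance trend 3 were called, Dusp1 being lost (adjusted p = 0.0755). Leaving out 1 array gave 3 to 4 member calls and 645 to 2309 in all; Ier3, Dusp5 and Spry1 were called in each case. For the line effect it gave 3 to 6 member calls (3 without GCN5+/- B, against 6) and 3025 to 5379 in all. The interaction called 13 probe sets, 4 with quantile normalization or the 60th percentile filter, 27 with no filter and 0 without a trend. The line A effect called 984 without a trend, against 2322. With the probe set of smallest p per gene, the RAS list had 2 genotype calls (1 otherwise) the RAF, MEK and ERK list 1 (0 otherwise), fibroblast markers 5 (4 otherwise) and endothelial markers 1 (0 otherwise).

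Over 757 member values under alternatives, 695 kept direction and call, 26 lost and 4 gained the call, and 32 changed sign, 0 of them called. The sign changes with duplicates averaged were -0.033 at Spry4 1440867_at and 0.011 at Spred2 1436892_at, and with quantile normalization -0.011 for the interaction at Spred2 1423001_at and 0.0074 for line A at Spred2 1441415_at. The rest came from leaving out 1 array, where genotype differences ran from -0.047 to 0.15 at Spry4 1440867_at, -0.042 to 0.0067 at Spred1 1423161_s_at, -0.13 to 0.12 at Spred1 1423162_s_at, -0.040 to 0.055 at Spred2 1434403_at, -0.078 to 0.058 at Spred2 1436892_at, -0.077 to 0.14 at Spred2 1441415_at, -0.0067 to 0.14 at Spred2 1423001_at, and line differences from -0.21 to 0.23 at Dusp1 1448830_at, -0.15 to 0.047 at Spred1 1423162_s_at, -0.028 to 0.38 at Spred1 1428777_at, -0.057 to 0.015 at Spred2 1434403_at, -0.0076 to 0.15 at Spred2 1441415_at, -0.071 to 0.038 at Spred2 1423001_at. Their cause was not tested. With 3 arrays per genotype from 2 lines, differences the size of those at the uncalled members are not resolved.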
